A study of Mus musculus with 18 samples.

Results

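The genes described here encode the proteins of the cytosolic ribosome, relatives that share their names, and the factors that move the ribosome along an mRNA. They were chosen by name from a table of 54532 mouse genes: every protein-coding gene named Rps or Rpl followed by a number, without the Rps6k kinases, Rps19bp1 and the named pseudogenes, plus Rpsa, Rplp0, Rplp1, Rplp2, Eef1a1, Eef1b2, Eef1d, Eef1g and Eef2. This gave 90 members: 43 large subunit proteins, 31 small subunit proteins, 3 proteins of the P stalk, 5 elongation factors and 8 paralogs. Of these, 87 passed the filter on low counts that left 14317 genes for testing. The others were paralogs: Rpl10l and Rpl39l had no count in any of the 18 libraries, which allows up to 3 counts each, and Rpl3l had 7 counts in all.

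The libraries were poly(A) RNA from mouse 10T1/2 cells, fibroblasts kept as a cell line and able to form fat, bone or cartilage cells in culture. They fell into 6 groups of 3: parental (WT) cells and cell lines labelled FOXS1 KO clone 1 and FOXS1 KO clone 2, each grown past confluence in serum and then either left uninduced or stimulated. Stimulated cells received TGF-β1 (1 nM, lasting 12 h), followed over 48 h by DMII, an adipogenic mix of insulin, indomethacin, dexamethasone and 3-isobutyl-1-methylxanthine. The study's methods describe overnight serum withdrawal before TGF-β1 in these cells, and the labels do not say whether it was part of this treatment or of the uninduced state. The methods also give DMII in another base medium than the one the cells were kept in, with no serum named for it. No group received TGF-β1 or DMII alone, so the effects of the agents cannot be told apart. Nor can that of the medium, if uninduced cells were not changed to it. Each KO line grew from a single cell after CRISPR-Cas9 editing with a pair of guide RNAs and puromycin selection, so what a clone shares with the edit and what it owes to its founder cell cannot be told apart either. The labels do not say whether the 3 libraries of a group came from separate cultures, so p-values measure only the spread between these libraries.

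A ribosome is built from a small subunit, which reads the mRNA, and a large subunit, which joins amino acids. The P stalk on the large subunit, made of Rplp0, Rplp1 and Rplp2, recruits the elongation factors: Eef1a1 brings the aminoacyl-tRNA, the complex of Eef1b2, Eef1d and Eef1g reloads Eef1a1 with GTP, and Eef2 moves the ribosome on by a codon. Vertebrate mRNAs of these proteins are known for a terminal oligopyrimidine tract (a C at the start of the transcript followed by a run of C and T), through which their translation is tied to growth signalling by mTORC1. RNA counts do not measure that translation.

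Total counts ran from 15576685 to 42005596 per library. Foxs1, the gene named in the labels, was at 1.64 to 3.25 CPM (counts scaled to library size) in the 6 WT libraries and at 21.1 to 56.8 CPM in the 12 libraries of the clones; counts over the whole gene do not show an edit within it, so they do not check the labels. The fibroblast collagen gene Col1a1 was at 9106 CPM or more in every library and Ptprc, which marks blood cells, had no count. Thy1, another fibroblast marker, was at 0.120 to 0.870 CPM in clone 2 and at 45.9 CPM or more in the other groups, and the adipocyte gene Fabp4 was at 16.3 CPM or more in stimulated clone 1 and at most 3.92 CPM elsewhere. Their part in the results was not tested. Replicate 3 of uninduced WT stood apart for several members: Rps18 was at 63.6 CPM there and at most 16.1 CPM in its partners, Rpl26 at 22.6 against 6.93 and 5.98 CPM, and Rps29 at 359.8 against 202 and 186 CPM. Over all tested genes it was replicate 1 that stood apart in this group. Its log counts correlated at 0.955 and 0.963 with replicates 2 and 3, the lowest of all replicate pairs, against 0.978 between replicates 2 and 3. CPM here are scaled by TMM factors, which bring the bulk of genes to the same level in each library.

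Start sites are shown because the tract sits there. Rps6 and Rpl15 are examples with a C on the annotated base that pyrimidines follow, and the others are shown because results below are given for them. RefSeq annotation of GRCm38.p6 gave a promoter for 68 of the 90 members. A C followed by at least 4 pyrimidines began exactly at the annotated start in 13 of them (19.1%), against 2.51% of 32851 promoters, and within 5 bases of it in 30 (44.1%), against 18.3%. The letters CCGGAA, the core of ETS factor sites, stood on either strand of the 300-base promoter in 34 of the 68, against 14.9% of all promoters. Each line gives 30 bases before and 20 bases from the annotated start, 5′ to 3′ on the gene's strand. Capitals mark the stretch of C and T that follows from the C nearest the start with at least 4 pyrimidines after it. The base before that C was not considered.
Rps6 (chr4:86857348-86857397, minus strand): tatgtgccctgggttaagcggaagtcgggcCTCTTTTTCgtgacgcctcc
Rpl15 (chr14:18270967-18271016, minus strand): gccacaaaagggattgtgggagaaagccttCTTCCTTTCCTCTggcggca
Rpl38 (chr11:114668550-114668599, plus strand): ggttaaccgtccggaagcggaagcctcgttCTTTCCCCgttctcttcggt
Rps26 (chr10:128626487-128626536, minus strand): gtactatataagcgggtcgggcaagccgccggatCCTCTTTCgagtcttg
Eef1a1 (chr9:78481705-78481754, minus strand): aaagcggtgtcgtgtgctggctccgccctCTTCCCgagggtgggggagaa
Rpl7a (chr2:26910777-26910826, plus strand): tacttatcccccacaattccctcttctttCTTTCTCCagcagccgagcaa
Rpl22l1 (chr3:28805478-28805527, plus strand): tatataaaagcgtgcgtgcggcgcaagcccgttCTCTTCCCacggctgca
Rpl36a (chrX:134585624-134585673, plus strand): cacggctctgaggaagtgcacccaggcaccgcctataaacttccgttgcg
Eef2 (chr10:81176601-81176650, plus strand): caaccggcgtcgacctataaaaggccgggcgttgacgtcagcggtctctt
The marked stretches of Rps6 and Rpl15 begin on the annotated base and that of Rps26 begins 4 bases after it. Rpl36a and Eef2 have none within 5 bases. In every marked line the base before the capitals is also C or T, so the full pyrimidine stretch begins earlier. A match is a description of these letters, since annotated starts can lie away from the base where transcripts begin. Of the 65 tested members with a promoter, 30 had a stretch of this kind within 5 bases and 35 did not. In the WT response described below, their median log2 changes were 0.34 and 0.31. The medians were 0.30 and 0.29 in the clone 1 response and 0.26 and 0.27 in the clone 2 response.

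Per length, Eef1a1 was the highest member at 3899 CPM per kb, followed by Rplp1 at 3092, Eef2 at 2175, Rplp0 at 2014 and Rpl41 at 1461 CPM per kb. The length is the one deposited with the counts, which for 86 of the 90 members equals all annotated exon bases of the gene together. It can exceed the length of the mRNA: Rplp1 was divided by 499 bases and Rplp2 by 2072. The order therefore depends on annotation as well as on abundance. Large and small subunit proteins had medians of 271 CPM per kb each, and the median over the 87 tested members was 269 CPM per kb. At the other end were Rps10 at 0.470, Rpl36al at 0.481, Rpl29 at 0.712, Rpl21 at 0.778 and Rpl26 at 5.75 CPM per kb. Apart from the paralog Rpl36al, these are subunit proteins, and their place in the order is taken up with the annotated copies further on.

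The members together held 7.47% ± 0.50 (SD, n = 3) of the counts in uninduced WT and 8.06% ± 0.27 in stimulated WT. In clone 1 they held 5.82% ± 0.10 uninduced and 6.31% ± 0.43 stimulated, and in clone 2 6.10% ± 0.45 and 6.20% ± 0.07. The lowest WT library, at 6.93%, lay above the highest library of the clones, at 6.81%, while uninduced and stimulated libraries overlapped in WT and in clone 2 and did not overlap in clone 1. Eef1a1 and Eef2 alone held 22.5% to 27.1% of the members' counts as group means.

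**Figure D1:**
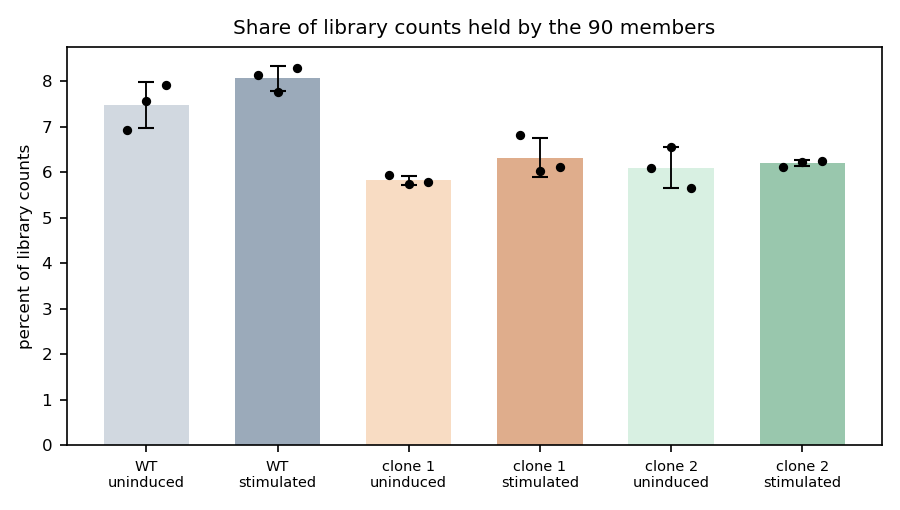
Percent of each library's counts that fell on the 90 members, by group. Bars are means of 3 libraries, error bars are SD and points are libraries; both WT groups (7.47% and 8.06%) stand above the 4 groups of the clones (5.82% to 6.31%).

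Stimulation raised the members in all 3 cell lines. In WT cells 61 of 87 rose and none fell at an adjusted p below 0.05 (edgeR quasi-likelihood test, Benjamini-Hochberg over all 14317 genes), against 28.8% of all genes higher and 31.9% lower, and the median log2 change of the members was 0.31 against -0.04 over all genes. In clone 1 the test called 56 higher and none lower (median 0.29), against 25.9% of all genes higher and 28.6% lower. In clone 2 it called 51 higher and none lower (median 0.27), against 26.7% and 29.1%. At an unadjusted p below 0.05, 0, 1 and 0 members were lower in WT, clone 1 and clone 2, and DESeq2 also called none lower. The 3 responses share no library, and 45 members rose in all of them, against 15.3% of all genes. In bulk RNA, fewer cells of a type and less RNA per cell cannot be told apart.

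The direction of this response holds relative to the bulk of genes, not relative to all counts. TMM factors were 1.07 to 1.11 in uninduced and 0.869 to 0.950 in stimulated libraries. Scaled by library totals alone, the median of all genes fell by 0.26 in WT, by 0.26 in clone 1 and by 0.31 in clone 2, and the medians of the members were 0.088, 0.045 and -0.024. On that scale 26 members were higher and 3 lower in WT, 17 and 4 in clone 1, and 7 and 20 in clone 2. The shares of all genes called on that scale were not counted, so these counts cannot be set against genes in general.

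**Figure D2:**
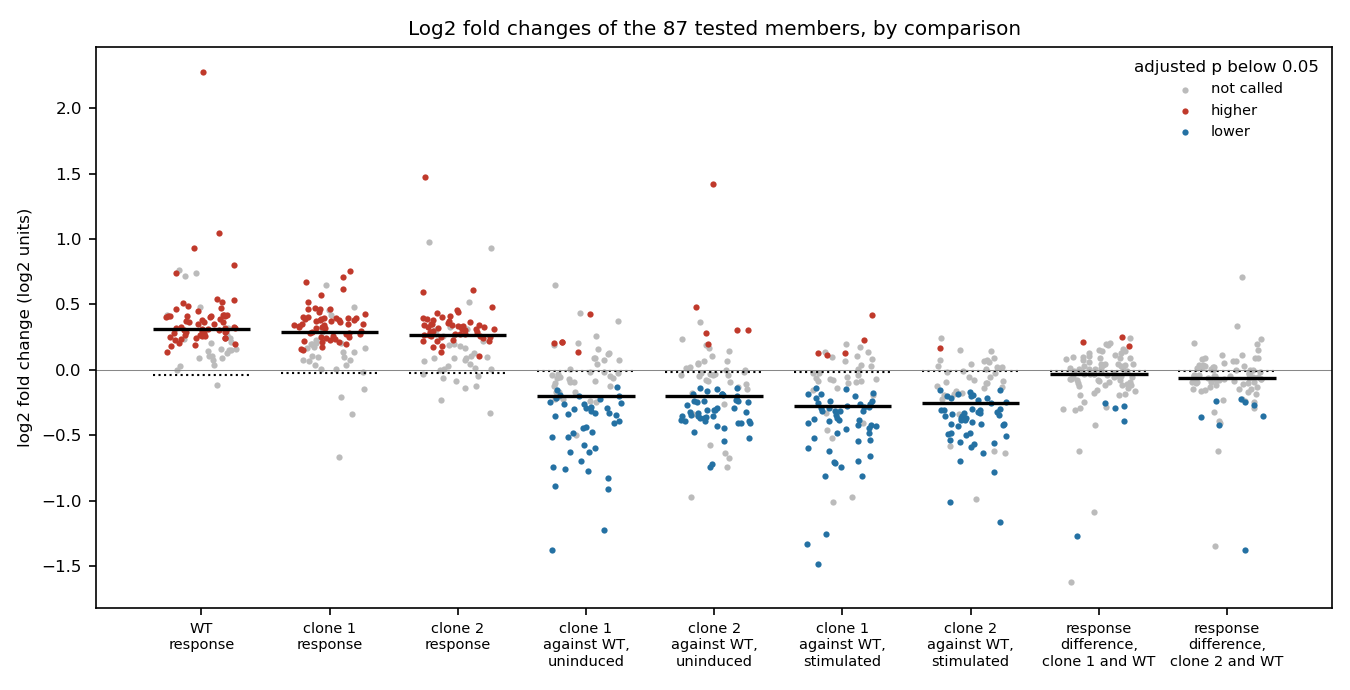
Log2 fold changes of the 87 tested members in 9 comparisons on the TMM scale, 1 point per gene, coloured by the edgeR call at an adjusted p below 0.05. Solid bars are medians of the members and dotted bars medians of all 14317 genes: members lie above the dotted bar in the 3 responses (0.31, 0.29 and 0.27) and below it in the 4 comparisons of clones with WT (-0.20 to -0.28).

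All 5 elongation factors rose with stimulation in each cell line, as did the 3 stalk proteins. Eef2 was at 7369, 7904 and 7402 CPM in uninduced WT and at 10509, 10418 and 10956 CPM in stimulated WT, in clone 1 at 4197, 3985 and 4072 and then 6925, 6441 and 6154 CPM, and in clone 2 at 5939, 6290 and 6068 and then 8182, 8702 and 8598 CPM. No library of a stimulated group overlapped its uninduced group, and the log2 changes were 0.49 ± 0.04 (SE), 0.67 ± 0.04 and 0.48 ± 0.04. Eef1g, the subunit that anchors the nucleotide exchange complex, was at 553, 623 and 667 CPM in uninduced WT and at 1081, 1061 and 1079 CPM after stimulation (0.81 ± 0.05), the largest WT rise of any elongation factor. In clone 1 Eef1g went from 501, 478 and 485 to 786, 724 and 741 CPM (0.62 ± 0.05), and in clone 2 from 596, 649 and 579 to 826, 836 and 840 CPM (0.46 ± 0.05). Eef1a1 rose by a log2 change of 0.26 ± 0.06 in WT, 0.39 ± 0.06 in clone 1 and 0.37 ± 0.06 in clone 2. In the order WT, clone 1 and clone 2, Eef1b2 rose by 0.54, 0.57 and 0.45 and Eef1d by 0.46, 0.32 and 0.22.

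Among the stalk proteins, Rplp0 had the largest changes: 0.52 ± 0.08 in WT, 0.71 ± 0.08 in clone 1 and 0.61 ± 0.08 in clone 2. Rplp1 changed by 0.21, 0.46 and 0.40, and Rplp2 by 0.42, 0.33 and 0.35. Adjusted p-values for the elongation factors and the stalk ran from 1.44e-14 (Eef2, clone 1) to 0.00361 (Rplp1, WT). With library totals in place of TMM, Rplp1 in WT and Eef1d in clone 2 changed sign, and the calls of Eef1a1 in WT and clone 2, Eef1d in clone 1, Rplp1 in clone 2 and Rplp2 in both clones were lost.

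**Figure D3:**
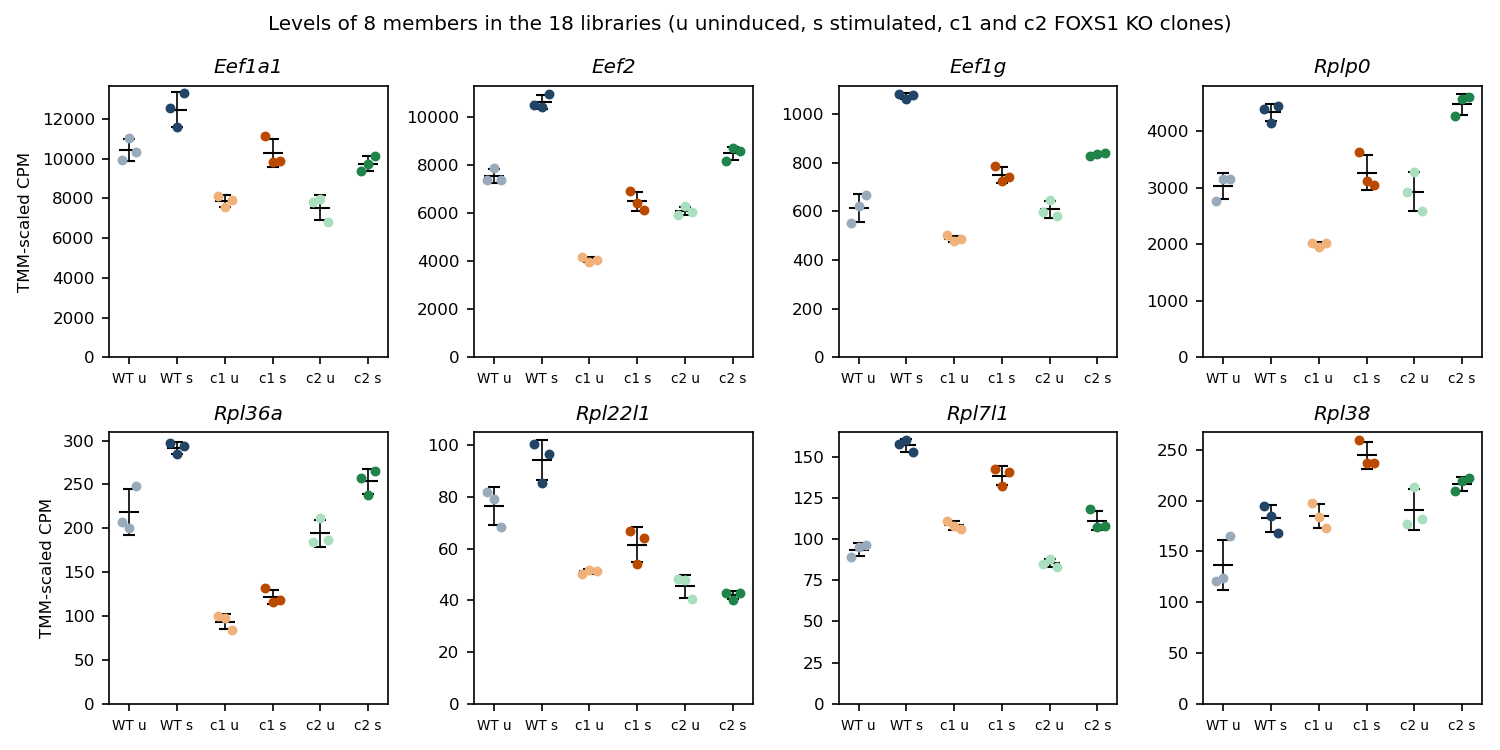
TMM-scaled CPM of 8 members in the 18 libraries; points are libraries, bars are mean and SD of 3, and axes start at 0. Eef2, Eef1g and Rplp0 rise with stimulation in every cell line, Rpl36a is low in clone 1, Rpl22l1 is low in both clones and Rpl38 is at its lowest in uninduced WT.

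Of the small subunit proteins 18, 18 and 19 of 31 rose in WT, clone 1 and clone 2, and of the large subunit proteins 32, 28 and 23 of 43. The 21 members with no call in any response included Rpl22, Rpl35, Rpl36, Rpl41, Rps12, Rps15, Rps28 and Rps29, and also Rps18, Rpl26 and Rps27. Several of these share sequence with annotated copies that hold counts: copies of Rps12 held 100183 counts beside its own 214328, and the copy of Rps29 held 37454 beside 87785. Beside Eef1g, the largest WT rises of members above 5 CPM without overlap between groups were Rpl7a (1.05 ± 0.25, adjusted p = 0.00253) and Rpl7l1 (0.74 ± 0.05, adjusted p = 1.96e-13). Rpl7a, a large subunit protein, went from 164, 217 and 253 to 371, 437 and 503 CPM in WT and from 236, 218 and 163 to 411, 269 and 363 CPM in clone 1 (0.76 ± 0.25, adjusted p = 0.0203). The clone 1 call was lost without uninduced replicate 3 (adjusted p = 0.0866) or stimulated replicate 1 (0.0738) of that clone. In clone 2 the largest rises beside Rplp0 and Eef2 were of Rpl13a (0.60 ± 0.09, adjusted p = 8.47e-06), from 53.1, 57.6 and 41.3 to 74.3, 78.3 and 78.6 CPM.

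Past a 2-fold rise there were 2 members in WT, Rpl7a and Rpl36al, against 6.25% of all genes, none in clone 1, and 1 in clone 2, Rps10, against 6.46%. Rpl36al was at 0.116, 0.210 and 0.305 CPM in uninduced WT and at 1.08, 1.04 and 1.13 CPM after stimulation (2.27 ± 0.57). With the counts of annotated copies added, the WT changes were 1.27 for Rpl36al and 0.79 for Rpl7a, the latter no longer past 2-fold. The copy added to Rpl36al, Rpl36a-ps3, shares 10.4% of its 100-base stretches, just over the cut of 10% used further on, and held 363 counts. Rps10 was at 0.558, 0.487 and 0.464 CPM in uninduced clone 2 and at 1.62, 1.57 and 1.08 CPM after stimulation (1.47 ± 0.49, adjusted p = 0.0112). Both are at the bottom of the order per length and rest on 251 and 409 counts over the 18 libraries. Whether these include or leave out reads that copies share is not known.

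The paralogs are genes related in sequence to a ribosomal protein gene, and their products need not be part of the ribosome. Among them Rpl7l1 rose in each line (0.74, 0.35 and 0.38), as did Rpl7 (0.30, 0.25 and 0.29). Rpl22l1 rose in WT (0.30 ± 0.08) and clone 1 (0.26 ± 0.08), and its log2 change in clone 2 was not called. Its partner Rpl22 was at 275 to 327 CPM in all 18 libraries and passed in no response. Rps27l, a p53-responsive paralog of Rps27, was at 94.6 to 129 CPM over all libraries and passed in no response either. Rpl36a, the X-linked partner of Rpl36al, rose by 0.41, 0.38 and 0.39. Outside the name rule, Rack1, a scaffold on the small subunit, rose by 0.66, 0.63 and 0.67, and Fau, a ubiquitin-like fusion, by 0.28, 0.25 and 0.42.

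Between WT and the clones the size of the response differed for few members. In the test of the difference itself, 3 members responded more and 5 less in clone 1 than in WT, against 15.9% of all genes higher and 15.7% lower. In clone 2, none responded more and 8 less, against 15.9% and 15.3%; at an unadjusted p below 0.05, 1 responded more and 10 less, and DESeq2 called none higher. Both differences use the same WT libraries. Without replicate 3 of uninduced WT, 9 members responded less in clone 1 and 19 in clone 2, and the count responding more in clone 1 ran from 1 (without stimulated replicate 1 or uninduced replicate 2 of clone 1, stimulated replicate 2 of WT or uninduced replicate 2 of WT) to 5 (without stimulated replicate 3 of clone 1 or uninduced replicate 1 of WT).

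Rpl14, a large subunit protein, was at 418, 431 and 434 CPM in uninduced WT and at 524, 513 and 520 CPM after stimulation. In clone 1 it was at 394, 405 and 403 and then 409, 404 and 394 CPM, and in clone 2 at 434, 420 and 396 and then 413, 432 and 413 CPM. The stimulated WT libraries were above all others, and the response was smaller by 0.27 ± 0.06 in each clone (adjusted p = 0.00044 for clone 1 and 0.000495 for clone 2). Rpl7l1 responded less by 0.39 ± 0.07 in clone 1 and 0.36 ± 0.07 in clone 2 (adjusted p = 8.81e-05 and 0.000252): its stimulated WT libraries were at 158, 160 and 153 CPM, those of clone 1 at 143, 132 and 141 and those of clone 2 at 118, 107 and 108 CPM. Rpl27a, another large subunit protein, responded less by 0.25 ± 0.07 in clone 1 (adjusted p = 0.00742) and 0.22 ± 0.07 in clone 2 (adjusted p = 0.0176); the clone 2 call was lost without uninduced replicate 2 of clone 2 (0.0614) or uninduced replicate 1 of WT (0.0505).

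Eef1g and Eef1d, partners in the exchange complex, responded less in clone 2 by 0.35 ± 0.07 (adjusted p = 0.000369) and 0.24 ± 0.07 (adjusted p = 0.00682). Eef1d went from 190 to 192 CPM in uninduced WT to 258 to 269 CPM, and in clone 2 from 194 to 203 CPM to 227 to 234 CPM. Rps4x, the X-linked small subunit protein, responded more in clone 1 by 0.22 ± 0.06 (adjusted p = 0.00487), with 1233, 1299 and 1296 CPM in uninduced and 1385, 1311 and 1349 CPM in stimulated WT beside 1232, 1190 and 1185 and then 1513, 1475 and 1440 CPM in clone 1. Past 2-fold there was 1 member in each difference, against 3.46% of all genes lower in clone 1 and 2.96% in clone 2. Rpl21 responded less in clone 1 (by 1.27 ± 0.40, adjusted p = 0.0145) at a level of 1.22 to 5.09 CPM, and with the counts of its annotated copies added the difference was -0.27 (adjusted p = 0.0875). Rpl7a responded less in clone 2 (by 1.37 ± 0.35, adjusted p = 0.00893), where it was at 307, 326 and 183 CPM uninduced and 254, 204 and 194 CPM stimulated, and with its copies added the difference was -0.83 (adjusted p = 0.0125).

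Values of genes that build or serve the ribosome are set beside those of the members; the groups of genes were not tested against each other. Of 35 tested ribosome assembly and RNA polymerase I genes, 29 rose in WT and 1 fell, with a median log2 change of 0.93. Over all genes 28.8% rose and 31.9% fell. The response was smaller for 29 of the 35 in clone 1 (median difference -0.58) and for 26 in clone 2 (-0.52), and larger for 0 in each. Over all genes, 15.7% responded less in clone 1 and 15.3% in clone 2, and 15.9% responded more in each. Of 30 initiation factors, 16 and 17 responded less and 2 and 3 more (clone 1, then clone 2). Of 77 tested mitochondrial ribosomal proteins, 28 and 27 responded less and 1 and 2 more. The median difference of the cytosolic members was -0.03 in clone 1 and -0.06 in clone 2, beside -0.31 and -0.27 for the mitochondrial ribosomal proteins. Among 20 other mRNAs with a known terminal oligopyrimidine tract, 13 rose and 2 fell in WT, 11 and 2 in clone 1, and 10 and 3 in clone 2. The shares over all genes were 28.8%, 25.9% and 26.7% higher and 31.9%, 28.6% and 29.1% lower. Beside the same shares, 6, 2 and 5 of 12 other tested elongation genes rose in WT, clone 1 and clone 2, and 3, 3 and 3 fell. Of 21 translation control genes, 8, 10 and 10 rose and 7, 4 and 5 fell, so neither list moved as a whole. As single genes, Eef2k and Larp1 do not stand for these lists, and a link to the members was not tested. Eef2k, the kinase that inhibits Eef2, fell by 1.66 on the log2 scale in WT, by 1.01 in clone 1 and by 1.41 in clone 2. Larp1, a repressor of tract-bearing mRNAs, rose by 0.67 in WT and had values of 0.15 in clone 1 and 0.06 in clone 2, where it was not called.

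Without stimulation the members were lower in the clones than in WT. In clone 1, 42 were lower and 5 higher, against 27.2% of all genes lower and 26.3% higher, with a median log2 difference of -0.20 against -0.01 over all genes. In clone 2, 45 were lower and 6 higher, against 26.9% and 26.3%, with the same median of -0.20. The picture was alike after stimulation: 50 were lower and 5 higher in clone 1 (median -0.28, against 30.5% and 28.4% of all genes), and 50 lower and 1 higher in clone 2 (median -0.25, against 28.3% and 27.7%). The uninduced and the stimulated comparison of a clone share no library, and 39 members were lower in both for clone 1, against 18.6% of all genes, and 42 for clone 2, against 17.2%. The comparisons of the 2 clones with WT share the WT libraries.

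Of the 5 elongation factors, 4 were lower in uninduced clone 1, 3 in uninduced clone 2 and 5 in each stimulated clone. Eef1d was not called without stimulation (-0.04 in clone 1 and 0.05 in clone 2) and was lower with it (-0.18 and -0.19). Eef2 was below WT by 0.89 ± 0.04 in uninduced clone 1 (adjusted p = 3.03e-17) and by 0.71 ± 0.04 after stimulation, so that its stimulated clone 1 libraries (6154 to 6925 CPM) lay below the uninduced WT libraries (7369 to 7904 CPM). In clone 2 it was below WT by 0.31 ± 0.04 and 0.32 ± 0.04. Eef1a1 was at 9942, 11018 and 10334 CPM in uninduced WT, at 8116, 7556 and 7938 CPM in clone 1 and at 7817, 7955 and 6812 CPM in clone 2, and no library of a clone reached WT. Its differences were -0.41 and -0.47 without stimulation and -0.28 and -0.35 with it. Eef1b2 was lower in each of the 4 comparisons (-0.48, -0.29, -0.44 and -0.38 in the order clone 1 and clone 2 uninduced, then stimulated), and Eef1g in 3 of them. Of the stalk proteins in clone 1, Rplp0 (-0.60 uninduced, -0.41 stimulated), Rplp1 (-0.51 and -0.25) and Rplp2 (-0.20 and -0.29) were lower. In clone 2 the calls were of Rplp1 without stimulation (-0.32) and of Rplp2 with it (-0.21). The Rplp2 call in uninduced clone 1 was lost in 10 of the 18 fits that left out a library (adjusted p 0.0501 to 0.422, the highest without replicate 3 of uninduced WT, where the difference was -0.055), and that in stimulated clone 2 without replicate 1 or 2 of stimulated WT or replicate 2 or 3 of stimulated clone 2 (0.0547 to 0.0898). Rplp0 in uninduced clone 2 was at 2931, 3273 and 2593 CPM beside 2768, 3165 and 3157 CPM in WT, with the libraries overlapping.

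Among the subunit proteins, those past 2-fold lower in clone 1 were Rpl36a and Rpl26 without stimulation, against 8.73% of all genes, and Rpl21, Rpl26 and Rpl36a with it, against 9.6%. Rpl36a was at 207, 201 and 249 CPM in uninduced WT and at 99.8, 97.6 and 83.9 CPM in clone 1 (-1.22 ± 0.08, adjusted p = 8.83e-12). After stimulation it was at 297, 284 and 294 against 132, 117 and 119 CPM (-1.26 ± 0.08). In clone 2 Rpl36a was at 184, 211 and 187 CPM and then 258, 238 and 265 CPM. The Rpl26 call without stimulation was lost without replicate 3 of uninduced WT (-0.46, adjusted p = 0.255) and without any library of uninduced clone 1 (0.0605 to 0.107), and that with stimulation without any WT library or without replicate 2 or 3 of clone 1 (0.0511 to 0.110).

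Past 2-fold lower in stimulated clone 2 were Rpl22l1 and Rpl7a, against 8.94% of all genes, and past 2-fold higher in uninduced clone 2 was Rpl36al, against 5.54%. Rpl22l1, the paralog that can replace Rpl22 in the large subunit, was at 100, 85.6 and 96.6 CPM in stimulated WT and at 43.0, 40.1 and 42.9 CPM in stimulated clone 2 (-1.16 ± 0.08, adjusted p = 9.46e-13). Its levels in stimulated clone 1 were 66.7, 54.0 and 64.0 CPM (-0.62 ± 0.08), between the other groups and overlapping neither. Rpl22 itself was called in none of the comparisons of a clone with WT. The Rpl36al call (1.42 ± 0.59, adjusted p = 0.0421) rests on values under 1 CPM. It was lost in 10 of the 18 fits that left out a library, where the adjusted p reached 0.114. With the copy Rpl36a-ps3 added, the difference was 0.30 (adjusted p = 0.521). That copy held more counts (363) than Rpl36al (251), so the sum is not a corrected level of Rpl36al.

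Few members stood above WT in a clone. Rpl37 was higher in all 4 comparisons (0.16 to 0.28), with 334, 333 and 396 CPM in uninduced WT, 429, 423 and 381 CPM in clone 1 and 430, 453 and 412 CPM in clone 2; in stimulated clone 2, where it was the 1 member called higher, its adjusted p of 0.0234 became 0.0616 to 0.0986 without replicate 2 or 3 of stimulated WT or replicate 1 or 3 of stimulated clone 2. Rpl38, whose loss alters axial patterning in mice, was at 120, 124 and 165 CPM in uninduced WT, at 197, 184 and 173 CPM in clone 1 (0.43 ± 0.11, adjusted p = 0.00274) and at 177, 214 and 182 CPM in clone 2 (0.48 ± 0.10, adjusted p = 0.00118), and above WT in stimulated clone 1 as well (0.42 ± 0.10). Rpl30 was higher without stimulation by 0.21 in clone 1 and 0.31 in clone 2, and the clone 1 call was lost without replicate 1 of uninduced WT (adjusted p = 0.0638). These small counts moved with single libraries. Without replicate 3 of uninduced WT, 9 members were higher in uninduced clone 1 and 10 in uninduced clone 2; without replicate 1 it was 3 and 3, and without replicate 2 it was 3 in clone 2. The 5 of stimulated clone 1 became 3 in 6 of the 18 fits that left out a library, and the 1 of stimulated clone 2 ran from 0 to 2.

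Set against each other, the 2 clones had no shared direction over the members: 8 were higher and 18 lower in clone 1 without stimulation, against 21% of all genes higher and 21.2% lower, and 19 were higher and 15 lower with it, against 22.2% and 23.2%. The medians were 0.00 and 0.04. These states share no library, and 7 members were higher and 13 lower in both, against 13.6% and 14.7% of all genes. Rpl36a was the 1 member called past 2-fold, lower in clone 1 by 1.05 ± 0.08 in each state, against 3.78% and 4.48% of all genes lower by as much. Rps12 was lower by 0.61 ± 0.15 and 0.81 ± 0.15, with 375, 370 and 421 CPM in uninduced clone 1 beside 615, 683 and 485 CPM in clone 2, and 408, 464 and 359 beside 722, 707 and 723 CPM after stimulation. Rpl13a was higher by 0.51 ± 0.09 without stimulation. The counts higher in clone 1 rested on single libraries. The 8 became 16 without replicate 2 of uninduced clone 2, and 3 to 5 without replicate 3 of that group or replicate 1 or 2 of uninduced clone 1. The 19 became 9 without replicate 1 of stimulated clone 1.

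Differences between the clones varied with the chromosome on which a member lies. For each chromosome the median log2 difference of its other genes with at least 5 CPM was taken; between the clones these medians ran from -0.46 to 0.39 without stimulation and from -0.49 to 0.31 with it, whereas in the 3 responses they stayed between -0.10 and 0.10. Over the 87 members, which fall on 20 chromosomes and share the chromosome value with their neighbours, Pearson's r between a member's difference and its chromosome's median was 0.65 (Spearman's rho 0.63) without stimulation and 0.67 (0.66) with it. The 5 members on chromosome 10 (Eef2, Rps26, Rps15, Rpl41 and Rps12) were all lower in clone 1 in both states, on a chromosome whose median was -0.46 and -0.49. Rpl36a, at -1.05 on chromosome X with a median of 0.00 and -0.01, did not follow its chromosome, nor did Rpl22l1, at 0.55 in the stimulated state on chromosome 3 (-0.02). What moves whole chromosomes in these lines was not tested.

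**Figure D4:**
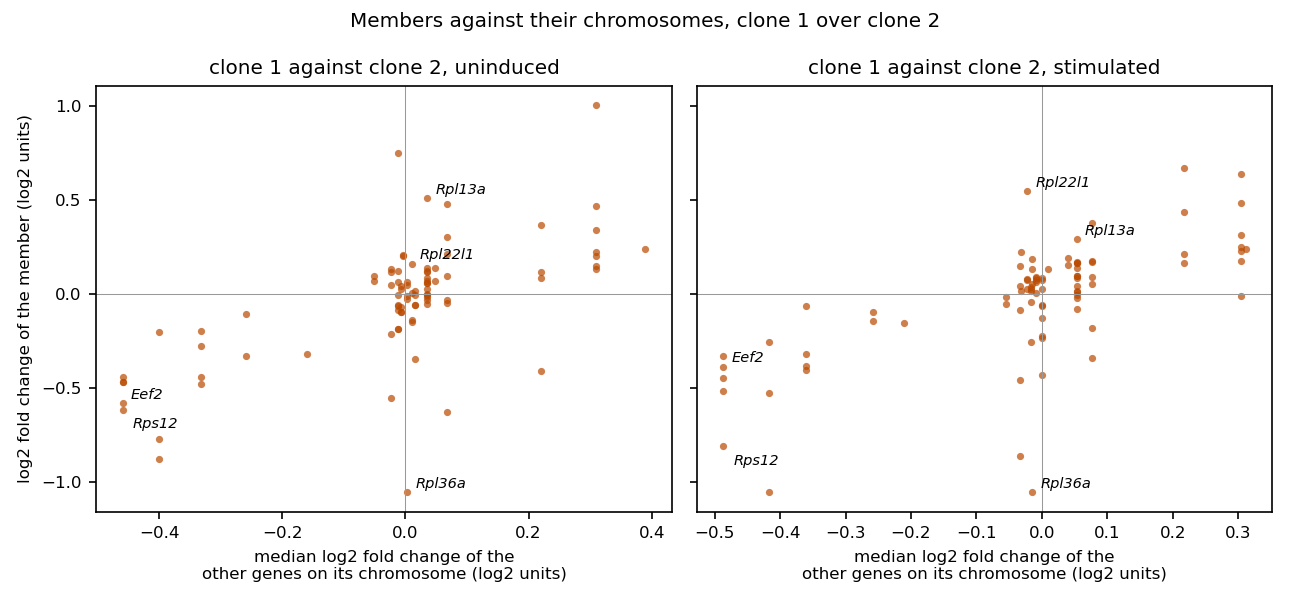
Log2 difference of each of 87 members between clone 1 and clone 2 against the median log2 difference of the other genes on its chromosome, uninduced (left) and stimulated (right). Members on chromosomes with low medians, such as Eef2 and Rps12 on chromosome 10, are low themselves, and Rpl36a lies far below its chromosome.

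Against WT the chromosome medians ran from -0.41 to 0.46 in uninduced clone 1 and from -0.24 to 0.46 in uninduced clone 2. With each chromosome's median subtracted, the median of the members was -0.25 and -0.23 without stimulation and -0.25 and -0.28 with it, and 72, 73, 77 and 79 of 87 members lay below their chromosome (clone 1 and clone 2 uninduced, then stimulated). Rpl37 and Rpl30, both higher in the clones, lie on chromosome 15, whose median was 0.46 in each uninduced clone, so each was below its chromosome. Rpl38, on chromosome 11 with medians of 0.07 and 0.02, was above its chromosome. Eef2 in clone 1 was at -0.89 on a chromosome at -0.41, and in clone 2 at -0.31 on the same chromosome at 0.07.

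Ribosomal protein genes have left many reverse-transcribed copies in the mouse genome, and for some members the copies hold the counts. Stretches of 100 bases were compared exactly between each member's main GENCODE M21 transcript and the transcripts of other genes, and 63 members had 209 annotated pseudogenes or unnamed gene models that share at least 10% of them. For 10 members such copies held more counts than the member itself. Rps10 had 409 counts in all libraries and its copy Rps10-ps2 had 59454. Rpl26 had 3259 and Gm15772 had 217686, Rps2 had 11185 and Rps2-ps10 had 323745, Rps18 had 9226 and Gm11361 had 132044, and Rpl29 had 304 and Gm13841 had 24779. For Rpl21 the 6 copies held 14365 counts against its 1025, for Rps3a1 5 copies held 3.45 times and for Rpl17 5 copies held 2.28 times. Over all members, as a description, Spearman's rho between the shared share of 100-base stretches and the level per length was -0.08 over 87 genes. The genes annotated over the same exons can also take reads, Gm15420 and RPS10-NUDT3 over 28.7% of the exon bases of Rps10 and Gm28037 over 47.0% of those of Rpl24.

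**Figure D5:**
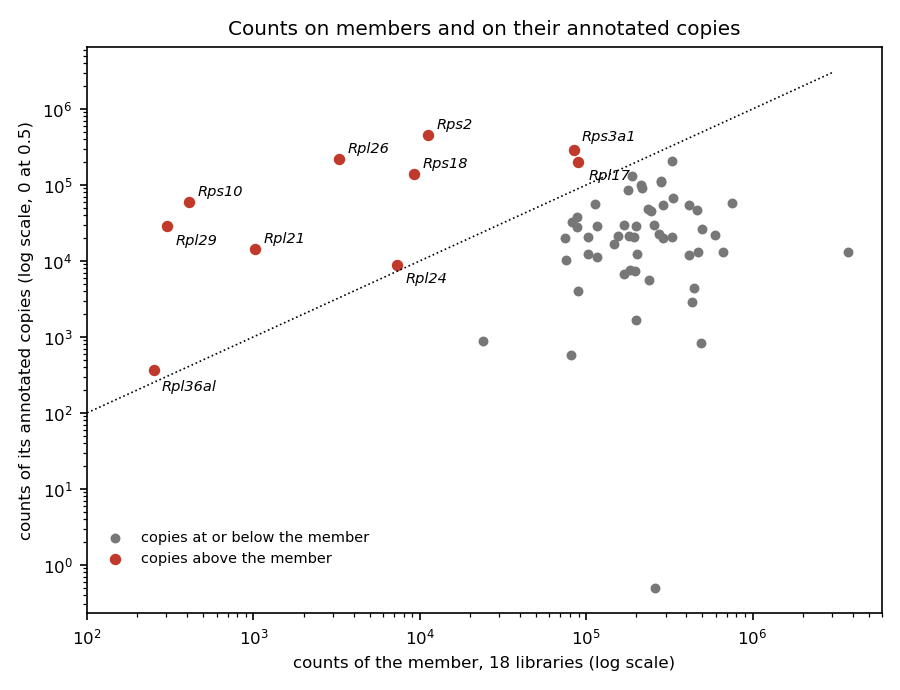
Counts of 63 members over the 18 libraries against the summed counts of their annotated copies, both on log axes; the dotted line marks equal counts. The 10 members above the line (red) include Rps10, Rpl29, Rpl26, Rps2, Rps18 and Rpl21, with Rps10 the farthest above it (145 times).

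Adding the counts of the copies to their members, a choice made after the data were seen, gave most of these genes calls in the responses. Rpl26 was then higher in the 3 responses by 0.32, 0.30 and 0.25 and lower in the clones by 0.35 to 0.47, in place of the calls at -1.37 and -1.33. Rps2 rose by 0.41, 0.54 and 0.30, Rps10 by 0.43, 0.37 and 0.36 and Rps3a1 by 0.28, 0.32 and 0.31, each past the adjusted threshold. Rps3a1 was not called between a clone and WT when so counted (-0.06 to 0.05), and Rpl21 rose in WT (0.23) with no call in the clones (-0.04 and -0.05). Counted so, 69, 61 and 59 members rose in WT, clone 1 and clone 2 and none fell, and 45, 49, 52 and 55 were lower in the clones (clone 1 and clone 2 uninduced, then stimulated). Leaving out the 10 members instead gave 58, 55 and 50 rises and 41, 44, 48 and 49 lower. Shares of all genes called were not counted in the fit with copies added.

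Rps27 and Rps27rt are a pair of members with shared sequence, and how reads were assigned between them was not tested. Rps27rt is a processed copy of Rps27 that the table lists as protein coding, and 98.4% of the 100-base stretches of the Rps27 transcript occur in it. Rps27 was at 90.8, 213 and 245.5 CPM in uninduced WT while Rps27rt was at 156, 53.1 and 39.2 CPM, and at 99.9, 217 and 210 CPM in uninduced clone 1 while Rps27rt was at 171, 44.8 and 41.7 CPM. The library low in the former was high in the latter each time. Their sum was 247, 266 and 285 CPM in uninduced WT and 271, 262 and 252 CPM in uninduced clone 1. With stimulation it was 331, 319 and 330 CPM and 313, 292 and 294 CPM. In clone 2 it was 255, 264 and 215 CPM and then 297, 295 and 322 CPM. The sums were not tested. They did not overlap between states in any line, as was the case for 62%, 61% and 64.9% of all genes in WT, clone 1 and clone 2. Neither gene was called in any response.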

How the data were processed

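Raw read counts per gene were used as the authors deposited them, in a table of 54532 genes and 18 libraries with gene length, position and biotype; every column was matched to a sample. Per the labels and the study's methods, poly(A) RNA was sequenced in pairs and aligned with HISAT2 to mm10. The counting program, its strand setting and its treatment of reads that match several genes are not stated in any source read. If such reads were dropped or split, counts of members with near-identical copies are too low or uncertain.

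Genes passing filterByExpr (minimum count 10) were fitted together over the 6 groups with edgeR 4.0.16 (TMM scaling, robust quasi-likelihood) in R 4.3.3, and 11 contrasts were tested with Benjamini-Hochberg adjustment over 14317 genes. A call is an adjusted p below 0.05. The standard error is the absolute log2 fold change divided by the square root of F. The fit was tested on data simulated for the WT groups alone, not for the model of 6 groups. Of 67, 67 and 66 genes changed by 1.5, 2 and 4-fold among 13238 genes, 76.1%, 83.6% and 100% were recovered. No change under 1.5-fold was simulated, so recovery of the smaller changes that most members had is not known. Replicate libraries differed by more than counting noise (chi-square per degree of freedom 3.13 to 14.7), so none was counted as a duplicate. Counting error is small at these depths except for members under 5 CPM. Alternatives were DESeq2 1.42.0, other scalings and filters, fits of only the groups compared, a replicate block and each library left out.

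Named are the elongation factors and stalk proteins, members past 2-fold, the largest called changes per comparison above 5 CPM without overlap, paralogs, the extremes per length, and Rack1 and Fau. Some genes that this rule names are not reported here. The authors used a 2-fold threshold beside their adjusted p. The members and lists were chosen with earlier results of these data known. Replicate numbers did not pair libraries.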

Additional observations from a re-analysis of the deposited data

Results flagged for a closer look

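A response that differed between a clone and WT by the test of the difference (edgeR quasi-likelihood, adjusted over all genes) was found for 16 pairs of member and clone. In clone 1 the log2 differences from the WT response were 0.18 for Eef2 (adjusted p = 0.0177), 0.25 for Rplp1 (0.0216), 0.22 for Rps4x (0.00487), -0.27 for Rpl14 (0.00044), -1.27 for Rpl21 (0.0145), -0.25 for Rpl27a (0.00742), -0.39 for Rpl7l1 (8.81e-05) and -0.29 for Rps27l (0.0274). In clone 2 they were -0.24 for Eef1d (0.00682), -0.35 for Eef1g (0.000369), -0.27 for Rpl14 (0.000495), -0.42 for Rpl22l1 (0.00566), -0.22 for Rpl27a (0.0176), -0.24 for Rpl30 (0.0395), -1.37 for Rpl7a (0.00893) and -0.36 for Rpl7l1 (0.000252). Rpl14, Rpl27a and Rpl7l1 were below the WT response in both clones, which share the WT libraries. The Eef2 call was lost without uninduced replicate 2 or stimulated replicate 1 or 2 of WT, or without uninduced replicate 2 or stimulated replicate 1 of clone 1 (adjusted p 0.0539 to 0.0948). That of Rplp1 was lost without uninduced replicate 2 or 3 or stimulated replicate 2 of WT, or without uninduced replicate 2 or 3 or stimulated replicate 1 of clone 1 (0.0546 to 0.0779). That of Rps27l was lost without uninduced replicate 1 or 2 or stimulated replicate 1 or 3 of WT, or without uninduced replicate 2 or stimulated replicate 2 or 3 of clone 1 (0.0507 to 0.0811). That of Rpl30 was lost without uninduced replicate 1 or any stimulated library of WT, or without uninduced replicate 1 or 2 or stimulated replicate 1 or 3 of clone 2 (0.059 to 0.111).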

How the results depend on the processing

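Under the 11 alternatives other than leaving out a library, most counts of members stayed within 1.5 times the reported one. The exceptions follow, and their cause was not tested. Shares of all genes called were counted in the main fit only. Library totals gave 26 higher and 3 lower in the WT response, 17 and 4 in the clone 1 response, 7 and 20 in the clone 2 response, 3 higher in stimulated clone 1 and 0 in stimulated clone 2 against WT, and 32 higher in clone 1 against clone 2 with stimulation. That scaling reversed the median of the clone 2 response (-0.024), Rps4x (-0.12) and Eef1d (-0.071) in the clone 2 response and Rplp1 (-0.012) in the WT response, and 26 of 149 values of named genes lost their call. Upper quartile scaling gave 2 and 0 members higher in stimulated clone 1 and clone 2 against WT and 1 lower in each clone's response. With no filter on counts, 9 members were higher in uninduced clone 1 and 2 in stimulated clone 2 against WT, 1 was lower in the clone 2 response, and 8 and 17 responded less in clone 1 and clone 2. Fits of only the groups compared gave 1 lower in the clone 1 response, 4 higher in stimulated clone 2 against WT and 13 higher in uninduced clone 1 against clone 2. DESeq2 and the filter of 1 CPM in 3 libraries each gave 2 higher in stimulated clone 2 against WT, and TMM factors from non-members gave 8 higher in uninduced clone 1. A fit with the replicate block gave 3 higher in stimulated clone 1 against WT, and 2 of 149 named values lost their call; same-numbered libraries correlated at -0.11 to 0.08 and 6 of 18 matched best with their own number, so the numbers name libraries and do not pair them. Without the 10 most abundant other genes of each library the members' shares were 8.13% and 9.17% in WT, 6.31% and 7.17% in clone 1, and 6.67% and 7.26% in clone 2 (uninduced, stimulated). Adding copies or leaving out members with larger copies, both chosen after seeing the data, kept every count within 1.5 times.

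With each library left out in turn, counts lower in the clone 1 response ran from 0 to 1. Against WT, counts higher ran from 3 to 9 in uninduced clone 1, 3 to 10 in uninduced clone 2, 3 to 6 in stimulated clone 1 and 0 to 2 in stimulated clone 2. Higher in clone 1 against clone 2 were 3 to 16 without and 9 to 21 with stimulation. Members responding more than WT ran from 1 to 5 for clone 1 and from 0 to 1 for clone 2, and less from 4 to 9 and 6 to 19. The counts of rises in the responses ran from 54 to 70 (WT), 49 to 61 (clone 1) and 45 to 57 (clone 2), and no called member changed sign.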
